A study of Rattus norvegicus with 99 samples.

Results

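The left ventricle (LV) of sham-operated rats was compared between older animals, 27 and 30 weeks of age, and young animals of 11 weeks. Sham rats were operated on without constriction of the aorta or pulmonary artery, so their hearts carried no added pressure load. The whole series held 99 libraries of polyadenylated RNA from 33 male rats, F1 offspring of a Wistar Kyoto mother and a Lewis father, each heart divided into LV, septum (Spt) and RV, the right ventricle. The comparison rests on 11 of these libraries. The young group (Sham-H) held 6 animals, 7 weeks after surgery. The older group held 2 animals shammed for the pulmonary artery, 27 weeks old and 21 weeks after surgery (Sham-RF), and 3 animals shammed for the aorta, 30 weeks old and 24 weeks after surgery (Sham-LF). These ages come from the sample labels and differ from those in the study's text. Age, time since surgery, age at surgery and the kind of sham operation differ together between the groups and cannot be told apart here.

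Members were chosen by their labels, with 1 exception. Young replicate 6 was left out because its ventricle labels are uncertain. This was decided from expression values: over 50 genes that differ between RV and LV, its RV-minus-LV difference was -1.02 times the median difference of the other animals, whereas the 11 shams kept here ranged from 0.43 to 1.38. In 3 of the 33 animals the sign was opposite to the labels. These values chose the members and are given as a description.

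Between early and later adulthood the rat heart completes its growth. Cardiomyocytes enlarge without dividing, fibroblasts lower their output of new collagen as the matrix matures and is crosslinked, and resident immune cells and interferon signalling are known to vary with age, housing and infection history. Transcripts of the molecular clock cycle over the day, so their level also depends on the hour at which the heart is taken. The study used the older shams as controls for heart failure and the young shams as controls for compensated hypertrophy. Their comparison asks how far the shams of both stages differ among themselves.

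Total counts of the 11 LV libraries ranged from 14.9 to 19.4 M, and 12.6% to 15.5% of them fell on the 10 highest genes. The libraries were numbered in 3 runs in the labels, called library series 1, 2 and 3 here. All 5 older libraries belonged to series 2, together with young replicates 3, 4 and 5, whereas young replicates 1 and 2 belonged to series 1 and young replicate 7 to series 3. The first principal component held 57.3% of the variance among the 11 libraries and placed both series 1 libraries apart at -36.5 and -35.7, with all others between -14.9 and 23.5. Library series was therefore a term of the model, which was fitted to 30 LV libraries of the series. Young replicate 5 was the lowest library for most lists of immune genes and for ribosomal protein genes, and counts that rest on it are given with and without it. Cardiomyocyte genes were high in every library: the summed level of the cardiomyocyte list was 126097 to 152085 CPM (counts per mega counts of the library) in older and 130508 to 169710 CPM in young shams.

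The older and young LV differed in few single genes. Among 11571 genes tested with edgeR's quasi-likelihood test, 2 passed a Benjamini-Hochberg adjusted p of 0.05 (0.0173%), Cdh22 and Pla2g2a, and both were higher in older shams. Without adjustment, 1447 genes had an unadjusted p under 0.05 (12.5%), 753 higher (6.51%) and 694 lower (6.00%), where 579 would be met by chance if no gene differed. The median log2 fold change of all genes was -0.0047. In the following, fold changes are log2 values of older minus young shams ± SE from this model, and genes that did not pass the adjusted threshold are given as values. The number of all genes at an unadjusted p under 0.05 moved with the fit, and list counts are to be read beside it. It was 816 within series 2 alone. Leaving out 1 animal gave 836 (young replicate 5) to 1782 (Sham-LF replicate 3), with 968 without Sham-LF replicate 2 and 976 without Sham-RF replicate 1.

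Cdh22 encodes a classical cadherin of cell-cell contacts. It measured 11.0 to 15.3 CPM in young shams, with a median of 13.2, and 19.4 and 21.9 CPM at 27 weeks and 26.3, 20.8 and 21.5 CPM at 30 weeks. All 5 older libraries thus lay above all 6 young ones, which 0.761% of the tested genes did. Means were 13.1 ± 1.66 CPM (SD, n = 6) and 22.0 ± 2.59 CPM (SD, n = 5), and the rise was 0.92 ± 0.14 (adjusted p = 0.0066). It also passed when any 1 of the 11 animals was left out, but not without the series term (adjusted p = 0.086) nor within series 2 alone (adjusted p = 0.41).

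Pla2g2a encodes the secreted group IIA phospholipase A2, an acute-phase enzyme that cleaves phospholipids. Young libraries measured 22.7 to 42.3 CPM with a median of 31.4, and older libraries 62.1, 52.9, 42.2, 41.7 and 57.6 CPM, so that 2 of the 30-week libraries lay within the young range. That range was set by series 1, since the series 2 libraries of young shams did not exceed 32.8 CPM. The rise was 0.84 ± 0.15 (adjusted p = 0.0399). It missed the threshold without any single one of 9 animals, with adjusted p of 0.0530 to 0.206. It missed it too without the series term (adjusted p = 0.17) and within series 2 alone (adjusted p = 0.41), where the older libraries lay above all 3 young ones.

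**Figure D1:**
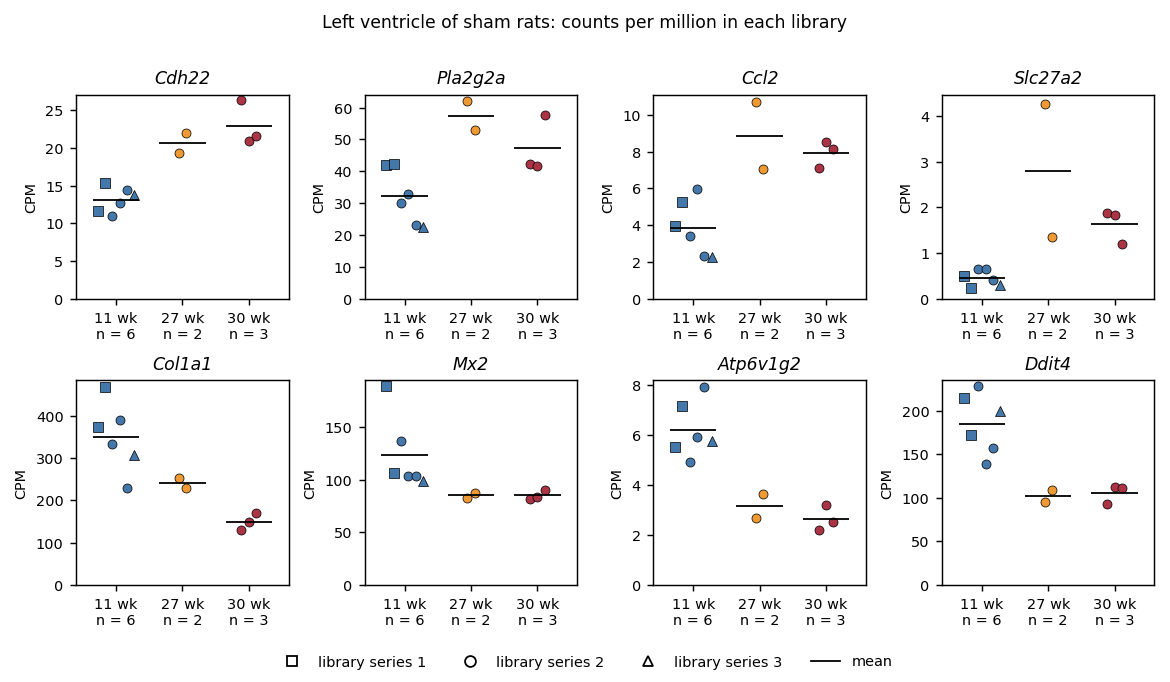
Level of 8 genes in CPM (vertical axis) in each of the 11 sham LV libraries, by age (horizontal axis). Each point is a library, its shape gives the library series and the bar is the group mean. All 5 older libraries lie above all 6 young ones for Cdh22, Ccl2 and Slc27a2 and below them for Mx2, Atp6v1g2 and Ddit4, while Pla2g2a and Col1a1 overlap.

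A further 9 genes with separate groups and the lowest p among higher genes did not pass the threshold. Fmo1, a flavin monooxygenase that oxidises drugs and other xenobiotics, measured 39.8 to 55.0 CPM in young and 56.0, 62.9, 72.3, 75.5 and 59.8 CPM in older shams (0.58 ± 0.12, adjusted p = 0.063). Slc27a2, a very-long-chain fatty acid transporter and acyl-CoA synthetase, stayed at or below 0.650 CPM in young shams and reached 4.27, 1.34, 1.87, 1.84 and 1.20 CPM in older ones (2.16 ± 0.46, adjusted p = 0.092). It had the widest difference of this set, and 1 of the 27-week libraries stood far above the others. Ass1, the argininosuccinate synthase of the urea cycle and of arginine recycling, measured 4.56 to 5.39 CPM against 7.09, 6.43, 9.03, 8.43 and 8.61 CPM (0.70 ± 0.16, adjusted p = 0.092).

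Adra2c, an α2-adrenoceptor, differed by 1.12 ± 0.25 at a level of 0.994 to 1.54 CPM in young and 1.81 to 2.44 CPM in older shams. Sncg (γ-synuclein) differed by 0.69 ± 0.16, Nrn1 (neuritin, a neurite growth protein) by 0.74 ± 0.17, Prr16 by 0.75 ± 0.17 and Aloxe3, an epidermal-type lipoxygenase, by 0.49 ± 0.11. Sepp1 encodes selenoprotein P, the secreted selenium carrier, and was the most abundant of these genes. It measured 962 to 1232 CPM in young and 1440, 1465, 1287, 1350 and 1498 CPM in older shams (0.36 ± 0.09, adjusted p = 0.15).

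No gene was called lower by edgeR in the model of 30 libraries, where 694 had an unadjusted p under 0.05. DESeq2 gave an adjusted p to 579 of 11571 genes in the same design. It called 5 of them lower, Col3a1, Col1a1, Col4a1, Sparc and Sspn. It called 45 higher, among them Sepp1, Dcn and many ribosomal protein genes. Adjusted over all genes tested, it called 6 lower, Sorbs3, Mest, Col3a1, Atp6v1g2, Erf and Aco1, and 28 higher. In the 11 shams alone without a series term, edgeR called 3 lower, Atp6v1g2, Ddit4 and Klf15. The 10 genes with separate groups and the lowest p among lower genes, out of the 0.882% of genes with such separation, had adjusted p of 0.092 to 0.22 in the model of 30 libraries. Atp6v1g2, a G subunit of the vacuolar proton pump, showed the largest difference of the 10. It measured 4.93 to 7.91 CPM in young and 2.67, 3.62, 2.21, 3.19 and 2.53 CPM in older shams (-1.22 ± 0.30). Ddit4 (REDD1), a stress- and glucocorticoid-inducible brake on mTORC1, measured 139 to 228 CPM against 94.7, 109, 92.7, 112 and 111 CPM (-0.66 ± 0.18). The older values of Ddit4 lay within a narrow band, and the young ones were spread widely.

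Sorbs3 (vinexin), a vinculin-binding adaptor of focal adhesions, had the lowest p of the set and measured 92.2 to 102 CPM in young and 76.6, 79.9, 76.0, 72.1 and 83.5 CPM in older shams (-0.33 ± 0.07). Aco1, the cytosolic aconitase that doubles as an iron regulatory protein, differed by -0.30 ± 0.07. The linker histone H1f0 differed by -0.33 ± 0.09, the mitochondrial deubiquitinase Usp30 by -0.30 ± 0.08, the semaphorin receptor Plxnb2 by -0.26 ± 0.07, the muscle-enriched Asb18 by -0.45 ± 0.12, Glod5 by -0.90 ± 0.23 and the clathrin adaptor subunit Ap1s3 by -0.80 ± 0.22. None of these 10 genes overlapped between the groups, which is how they were chosen.

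Olr1085 carries the symbol of an olfactory receptor and was near absent from the young LV, with 1 count in replicate 2 and none in the other 5 young libraries. The older libraries had 6, 3, 27, 15 and 17 counts, that is 0.308 and 0.175 CPM at 27 weeks and 1.53, 1.06 and 1.02 CPM at 30 weeks. The groups did not overlap, and the adjusted p was 0.063. Olr1085 was called with the 30-week shams alone (adjusted p = 0.0029), without the series term (0.0091), with all 33 libraries (0.0070), without Sham-RF replicate 1 or 2 (0.049 and 0.020) and by DESeq2 over all genes tested (0.0016), and not within series 2 alone (0.51) or with the 27-week shams alone (0.35). Olfactory receptor genes have close relatives, so the assignment of these few reads is uncertain. Ntsr1, a neurotensin receptor, measured 1.42 to 3.19 CPM in young and 5.24, 5.20, 4.66, 2.69 and 6.63 CPM in older shams (1.13 ± 0.22, adjusted p = 0.063). With all 33 libraries Ntsr1 and Slc27a2 were called as well. Both Olr1085 and Ntsr1 were named after their values were seen.

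The fibrillar collagen genes with the lowest p were lower in the older LV. Of 39 tested genes of fibrillar collagens and their processing, 6 were lower and 1 was higher at an unadjusted p under 0.05, none was called by edgeR, and 28 of the 39 lay below 0, with a median of -0.16. Col3a1 encodes type III collagen and measured 921 to 1526 CPM in young shams (median 1278), 918 and 979 CPM at 27 weeks and 572, 569 and 709 CPM at 30 weeks (-0.81 ± 0.20, adjusted p = 0.14). Col1a1, the α1 chain of type I collagen, measured 229 to 468 CPM in young shams, 253 and 229 CPM at 27 weeks and 129.8, 149 and 171 CPM at 30 weeks (-0.88 ± 0.23, adjusted p = 0.18). For both genes the 30-week libraries lay below every young library, and 1 of the 27-week libraries lay within the young range, above young replicate 5, the lowest of its group. DESeq2, adjusting over the 579 genes its filter kept, called both genes lower, Col3a1 at an adjusted p of 0.0086 and Col1a1 at 0.026. Adjusted over all genes tested, it called Col3a1 (0.018) and not Col1a1. With the 27-week shams alone, 4 genes of the list were higher and 2 lower at an unadjusted p under 0.05 (median -0.11), and with the 30-week shams alone 1 was higher and 6 were lower (median -0.20). Of all 11672 genes, 1381 and 892 had an unadjusted p under 0.05 in these 2 fits, in either direction. The difference between both ages was not tested for the list. Within series 2 alone the list had 3 genes lower and a median of -0.05, and without young replicate 5 the median was -0.31.

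Other members followed with smaller differences. The type V chains Col5a1 and Col5a2 differed by -0.44 ± 0.15 and -0.36 ± 0.13, and Sparc, a collagen-binding matricellular protein, by -0.30 ± 0.11. Decorin (Dcn), the small proteoglycan that coats collagen fibrils, went the other way, with 1092 to 1532 CPM in young and 1614, 1583, 1429, 1539 and 1487 CPM in older shams (0.33 ± 0.09, adjusted p = 0.20). DESeq2 called Dcn higher, at an adjusted p of 0.016, and of 0.046 over all genes tested. In the basement membrane list, 3 of 10 genes were lower and none was higher at an unadjusted p under 0.05 (median -0.22). Col4a1, the α1 chain of type IV collagen, measured 555 to 709.9 CPM in young and 497, 538, 500.5, 479 and 481 CPM in older shams, without overlap (-0.43 ± 0.12, adjusted p = 0.24). Among 13 matrix proteases and inhibitors, Mmp2 (gelatinase A) had the lowest p (-0.24 ± 0.09). The fibroblast marker list as a whole had a median of -0.03 over 14 genes, with 2 higher and 2 lower at an unadjusted p under 0.05, and its summed level was 7209 to 8932 CPM in older and 6773 to 9239 CPM in young shams. In bulk tissue, fewer cells of a type and less RNA per cell cannot be told apart.

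Interferon-stimulated genes, which are induced by type I or II interferon and act against viruses, lay below 0 for the most part. Of 35 tested members, 12 were lower and 1 was higher at an unadjusted p under 0.05, none was called by edgeR, and the median was -0.20. With the 27-week shams alone, 2 were higher and 2 lower (median -0.10), and with the 30-week shams alone none was higher and 9 were lower (median -0.24). The 2 fits held 1381 and 892 of all 11672 genes at an unadjusted p under 0.05. Many of these genes carry an interferon-stimulated response element in their promoter. The motif searched for was GAAA, any 2 bases and GAAA again, on both strands, in the 250 bases before each gene's start in RefSeq (build GRCr8), a later build than that of the counts. It occurred in 3.41% of 33469 promoters, in 2.62% of those of 8810 tested genes and in 16 of the 26 list members with a promoter in the table, among them 5 of the 8 matched members that were lower. Shown are 100-base windows, 5′ to 3′ on the gene's strand with the motif in capitals, for 3 of these 5 members, to let the shared element be seen. The windows lie at chr1:241527226-241527325 (+ strand) for Ifit3, chr1:205800038-205800137 (- strand) for Irf7 and chr12:41395853-41395952 (- strand) for Oas1b, which holds overlapping matches.
Ifit3: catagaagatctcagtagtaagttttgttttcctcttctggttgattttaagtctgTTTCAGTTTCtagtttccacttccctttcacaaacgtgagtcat
Irf7: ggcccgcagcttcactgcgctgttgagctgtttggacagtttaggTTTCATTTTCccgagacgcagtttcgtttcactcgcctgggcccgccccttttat
Oas1b: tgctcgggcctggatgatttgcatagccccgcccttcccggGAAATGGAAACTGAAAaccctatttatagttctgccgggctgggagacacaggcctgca

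A match in these letters is a description of the window and not evidence of binding. Ifit3, which blocks the translation of viral RNA together with its relatives, measured 36.7 to 70.0 CPM in young and 44.2, 41.4, 30.6, 31.6 and 39.1 CPM in older shams (-0.40 ± 0.17). Irf7, the transcription factor that amplifies interferon production, measured 127 to 245 CPM against 127, 134, 119, 119.8 and 127 CPM (-0.37 ± 0.16). Oas1b, a member of the oligoadenylate synthetase family with close paralogs such as Oas1a, measured 20.2 to 38.5 CPM against 16.2, 15.4, 15.7, 18.8 and 20.9 CPM (-0.43 ± 0.17). In all 3 genes the highest value belonged to young shams and the groups touched or overlapped.

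The GTPase Mx2 did not overlap: it measured 98.9 to 189 CPM in young and 82.8, 87.1, 81.4, 83.1 and 90.4 CPM in older shams (-0.48 ± 0.19, adjusted p = 0.34). Usp18, the negative regulator of the interferon receptor, measured 39.9 to 68.1 CPM against 39.9, 34.9, 35.4, 33.0 and 38.8 CPM (-0.39 ± 0.14). Stat2, the signal transducer of type I interferon, had the lowest p of the list (-0.33 ± 0.09, adjusted p = 0.23), Mx1 differed by -0.57 ± 0.20 and Isg15, a ubiquitin-like modifier, by -0.41 ± 0.17. Cxcl10 was the member that lay higher at an unadjusted p under 0.05 (0.52 ± 0.19). It is also a chemokine, and the chemokine list was higher. The mean level of the list per library, as log2(CPM + 1), was 5.00 to 5.22 in older shams and 5.08 to 5.71 in young shams, the highest value being that of young replicate 1. Leaving that library out, 8 members were lower, without young replicate 3 there were 3, and without Sham-LF replicate 1 or 2 there were 6.

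Genes of immune cells and of the chemokines that recruit them lay above 0 for the most part. Red cell genes, which mark blood content, did so too, with 5 of 6 above 0 (median 0.31) and none at an unadjusted p under 0.05. Their summed level was 704 to 3109 CPM in young and 1795 to 2431 CPM in older shams, lowest in young replicate 5, and their part in the immune result was not tested. In the chemokine and cytokine list, 9 of 27 genes were higher and none was lower at an unadjusted p under 0.05, and 26 lay above 0 (median 0.20). Ccl2 (MCP-1) and Ccl7 (MCP-3) attract monocytes through the receptor CCR2. Ccl2 measured 2.30 to 5.96 CPM in young and 10.7, 7.07, 7.10, 8.50 and 8.13 CPM in older shams (1.00 ± 0.28, adjusted p = 0.23). Ccl7 measured 1.26 to 3.07 CPM against 5.96, 4.09, 3.97, 5.39 and 4.46 CPM (1.15 ± 0.31, adjusted p = 0.19). Ccl6, a macrophage chemokine of rodents, measured 9.22 to 17.1 CPM against 26.4, 23.1, 17.5, 18.2 and 20.2 CPM (0.62 ± 0.16, adjusted p = 0.17). The neutrophil attractant Cxcl1 was low, at 0.629 to 1.10 CPM in young and 1.14 to 1.95 CPM in older shams, and like the other chemokines named with values here it showed no overlap.

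Among 19 markers of T and NK cells, all 19 lay above 0 (median 0.47), 5 of them at an unadjusted p under 0.05. Lck, the kinase of the T cell receptor, measured 2.46 to 4.81 CPM in young and 7.04, 6.95, 4.83, 7.23 and 4.88 CPM in older shams (0.73 ± 0.23, adjusted p = 0.27). The cytotoxic genes Prf1 (perforin) and Gzmb (granzyme B) differed by 0.62 ± 0.25 and 0.60 ± 0.28. All 20 tested macrophage markers lay above 0 as well (median 0.30), 5 of them at an unadjusted p under 0.05. Gpnmb, a glycoprotein of lipid-laden macrophages, measured 17.0 to 25.2 CPM against 41.6, 32.8, 29.0, 31.8 and 35.8 CPM, without overlap (0.49 ± 0.24). The scavenger receptor Msr1 differed by 0.57 ± 0.24. With the 27-week shams alone, 9 T and NK cell genes and 3 macrophage genes were higher (medians 0.76 and 0.39), and with the 30-week shams alone 2 and 0 (medians 0.22 and 0.23). Chemokine genes gave 7 and 4. Over all 11672 genes of these fits, 1381 with the 27-week and 892 with the 30-week shams had an unadjusted p under 0.05. Both cell type lists had their lowest mean level in young replicate 5. Without it, 2 T and NK cell genes, no macrophage gene and 4 chemokine genes were higher at an unadjusted p under 0.05, with medians of 0.35, 0.18 and 0.07. Without Sham-RF replicate 1 the counts were 2, 1 and 5, and the T and NK cell median was 0.25. Without Sham-LF replicate 3, 8 T and NK cell genes and no macrophage gene were higher, and without young replicates 3, 4 or 7 or Sham-RF replicate 2 the macrophage count was 2 or 3. Over all genes, 836, 976 and 1782 had an unadjusted p under 0.05 without young replicate 5, Sham-RF replicate 1 and Sham-LF replicate 3.

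Of 19 complement and acute-phase genes, 5 were higher and 1 was lower at an unadjusted p under 0.05. The adipsin gene Cfd, made by adipocytes and macrophages, had the lowest p (0.59 ± 0.14, adjusted p = 0.13). The complement protease C1s measured 127 to 151 CPM in young and 183, 178, 153, 154 and 165 CPM in older shams, without overlap (0.26 ± 0.08), and the terminal complement component C6 differed by 0.72 ± 0.21. Markers of B and plasma cells, mast cells, neutrophils and MHC class II showed 0 or 1 member at an unadjusted p under 0.05 in either direction.

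**Figure D2:**
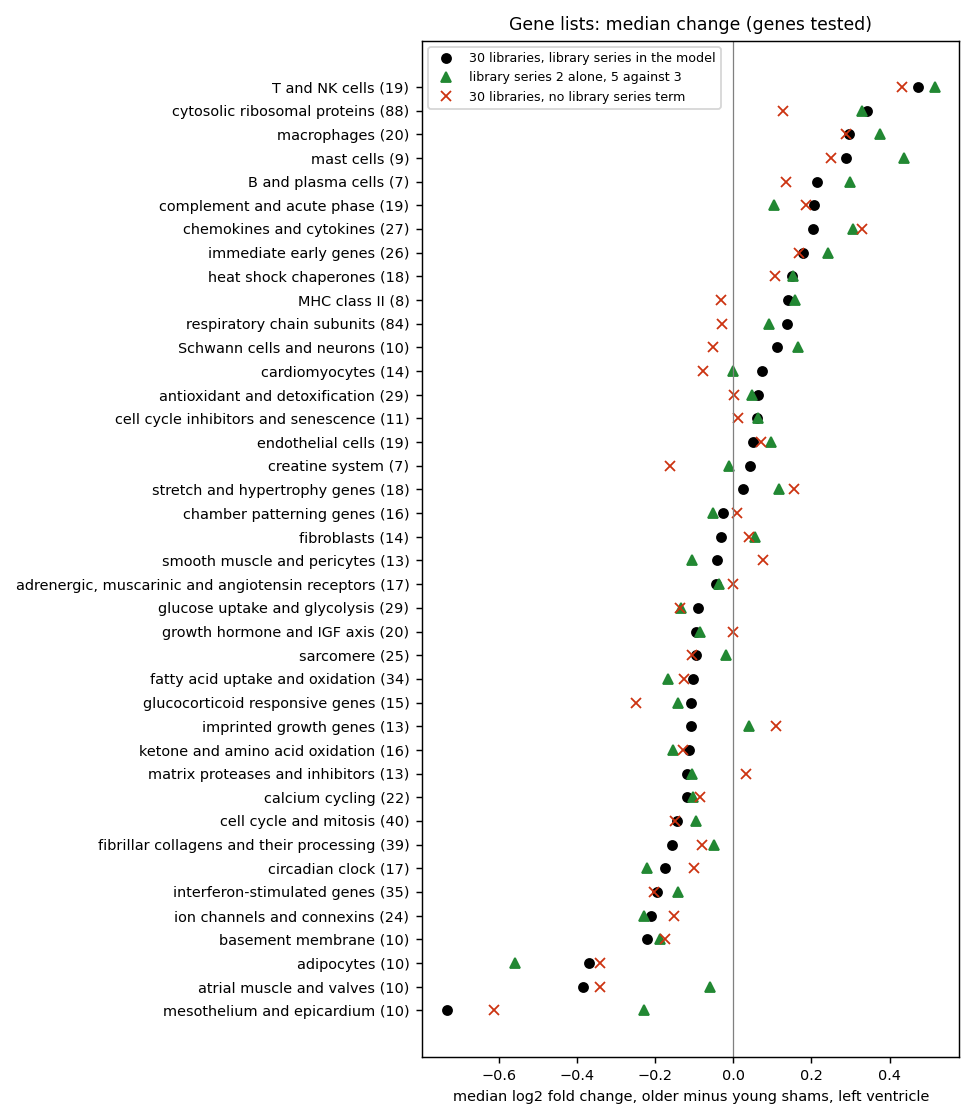
Median log2 fold change, older minus young sham LV (horizontal axis), of each gene list with at least 7 tested genes (vertical axis, number tested in brackets), from 3 models. The T and NK cell, macrophage and chemokine lists lie to the right of 0 and the collagen, basement membrane, interferon, clock and ion channel lists to the left in each of the 3 models, whereas the ribosomal protein median is 0.34 with library series in the model and 0.13 without it.

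Clock-controlled genes lay below 0 for the most part. Of 17 tested genes of the circadian clock, 7 were lower and none was higher at an unadjusted p under 0.05 (median -0.17). The hour at which hearts were taken is not given in the labels, and its part in the result was not tested. The E-box CACGTG, the palindromic site of the CLOCK and BMAL1 pair, occurred in 5.59% of the 33469 promoters, in 8.07% of those of the 8810 tested genes and in 3 of the 14 matched members, Ciart, Tef and Bhlhe40, all of which were among the 7 lower genes. Windows of 2 of them are shown with the E-box in capitals, at chr2:186112247-186112346 (- strand) for Ciart, which held 3 matches, and chr7:115206582-115206681 (+ strand) for Tef.
Ciart: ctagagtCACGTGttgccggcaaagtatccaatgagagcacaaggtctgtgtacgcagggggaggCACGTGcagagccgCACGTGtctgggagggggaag
Tef: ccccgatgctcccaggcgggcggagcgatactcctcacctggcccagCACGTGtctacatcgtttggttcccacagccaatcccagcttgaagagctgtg

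Ciart (CHRONO), a repressor within the clock, measured 6.38 to 24.8 CPM in young shams (median 19.4), 8.99 and 8.65 CPM at 27 weeks and 2.90, 2.62 and 7.77 CPM at 30 weeks (-1.22 ± 0.43, adjusted p = 0.29). Tef, a PAR bZIP output factor, measured 239.5 to 349 CPM against 203, 219, 207, 195 and 249.9 CPM (-0.37 ± 0.11, adjusted p = 0.24). Dbp, another output factor of that family, differed by -0.51 ± 0.25, the clock-controlled deubiquitinase Usp2 by -0.58 ± 0.18, Bhlhe40 by -0.37 ± 0.15 and the core repressor Per1 by -0.39 ± 0.15. Arntl (BMAL1), the activator whose peak falls opposite to these genes, lay the other way at 1.52 to 3.66 CPM in young and 4.21, 3.51, 3.12, 4.75 and 2.59 CPM in older shams (0.51 ± 0.28, unadjusted p = 0.082). The 3 lowest mean levels of the list were those of Sham-LF replicates 2 and 1, at 5.03 and 5.11, and of Sham-RF replicate 1, at 5.30. Without Sham-LF replicate 2, 3 members were lower, and without Sham-H replicate 3 there were 4.

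Klf15, a glucocorticoid-inducible and clock-linked factor of cardiac metabolism, measured 95.2 to 119.7 CPM in young and 77.9, 84.1, 69.9, 68.6 and 73.2 CPM in older shams, without overlap (-0.39 ± 0.13, adjusted p = 0.29). Of 15 glucocorticoid-responsive genes, 4 were lower and none was higher at an unadjusted p under 0.05 (median -0.11). Per1 is on both lists. Without Sham-LF replicate 2, 2 glucocorticoid-responsive genes were lower.

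**Figure D3:**
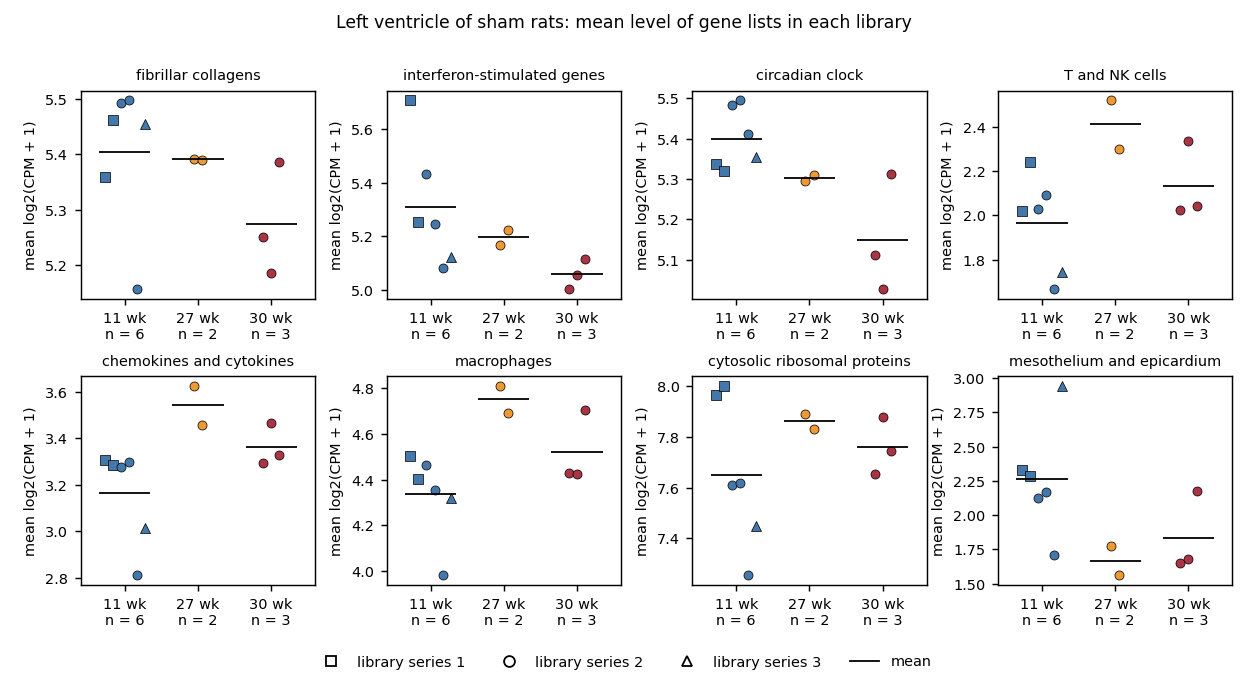
Mean level of 8 gene lists, as log2(CPM + 1) averaged over their genes (vertical axis), in each of the 11 sham LV libraries by age (horizontal axis). Points are libraries with the shape giving the series, and bars are group means. Ribosomal protein genes are highest in both series 1 libraries and lowest in young replicate 5, and mesothelial genes are highest in young replicate 7, the only series 3 library.

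Ribosomal protein genes moved with library series, and their comparison depended on how it was treated. With series in the model, 72 of 88 genes for cytosolic ribosomal proteins were higher and none was lower at an unadjusted p under 0.05 (median 0.34). Within series 2 alone, 53 were higher (median 0.33). Without a series term none was (median 0.13). Many ribosomal protein genes have processed pseudogenes, between which reads can be split. Rpl7 measured 881 and 919 CPM in the young libraries of series 1, 729, 708 and 559 CPM in those of series 2 and 649 CPM in that of series 3, against 896.5, 891, 812, 907.2 and 863 CPM in older shams (0.39 ± 0.10, adjusted p = 0.15). The older libraries thus lay above the young ones of their own series and level with those of series 1. Gene length moved in parallel: among genes split by length into 3 equal sets, the shortest set had a median of 0.06, with 13.0% higher and 3.91% lower at an unadjusted p under 0.05, and the longest set a median of -0.05, with 2.56% higher and 8.01% lower. The long-minus-short difference of a library ran from -0.42 in series 1 to 0.15 in young replicate 7. The part of transcript length or RNA quality in the ribosomal result was not tested.

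Respiratory chain subunits, most of them short transcripts, showed a like but smaller pattern, with 25 of 84 genes higher and 2 lower at an unadjusted p under 0.05 (median 0.14). Cox6a2, the muscle form of a cytochrome c oxidase subunit, had the lowest p and measured 2070 to 3717 CPM in young and 2864, 2819, 2738, 3363 and 2676 CPM in older shams (0.30 ± 0.09). Its highest values in young shams were those of series 1. Without a series term none was higher and 2 were lower (median -0.03), and within series 2 alone 3 were higher. Without young replicate 5, Sham-LF replicate 2 or Sham-RF replicate 1 the counts of higher genes were 13, 11 and 16.

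Metabolic genes differed in single members. Pfkfb1, a bifunctional enzyme that sets the level of fructose 2,6-bisphosphate in glycolysis, measured 0.889 to 1.96 CPM in young and 2.88, 2.40, 3.12, 2.91 and 3.07 CPM in older shams, without overlap (1.10 ± 0.29, adjusted p = 0.18). Hk2, the insulin-regulated hexokinase, differed by -0.47 ± 0.14. Among 34 genes of fatty acid uptake and oxidation, 6 were lower and 1, the uncoupling protein Ucp2 (0.34 ± 0.11), was higher at an unadjusted p under 0.05. The lower ones included the nuclear receptor Ppara (-0.62 ± 0.30) and its coactivator Ppargc1a (-0.51 ± 0.19), both with their highest values in young replicates 5 and 7. Without young replicate 5, or within series 2 alone, 1 gene of this list was lower, and without Sham-RF replicate 1 or Sham-LF replicate 2 there were 2. The ketone-body enzyme Bdh1 differed by -0.42 ± 0.15, the creatine transporter Slc6a8 by -0.29 ± 0.13 and the peroxidase Gpx4 by 0.29 ± 0.10. Heat shock chaperones had 3 of 18 genes higher and none lower at an unadjusted p under 0.05, led by Hspa8 (0.38 ± 0.12).

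Genes of electrical excitation lay below 0 for the most part. Of 24 ion channel and connexin genes, 4 were lower and 1 was higher at an unadjusted p under 0.05 (median -0.21), with 2 lower without Sham-LF replicate 2 and 7 without Sham-LF replicate 3. Kcnh2, the channel of the rapid delayed rectifier current, measured 54.5 to 76.4 CPM in young and 46.7, 49.0, 43.7, 44.9 and 53.3 CPM in older shams, without overlap (-0.38 ± 0.13, adjusted p = 0.28). Kcnj2 and Kcnd3, which carry inward rectifier and transient outward currents, differed by -0.63 ± 0.27 and -0.40 ± 0.17. Kcnj2 was lowest in both series 1 libraries of young shams, at 1.29 and 1.54 CPM, and its older values lay inside the young range. The α1A-adrenoceptor gene Adra1a differed by -0.75 ± 0.30 and the calmodulin kinase gene Camk2a by -0.62 ± 0.23, likewise with overlap. Of 22 calcium cycling genes, 4 were lower and 1 was higher at an unadjusted p under 0.05, with 1 or 2 lower without Sham-LF replicate 2, Sham-RF replicate 1 or young replicate 5, and of 25 sarcomere genes 1, Mybpc3 (-0.22 ± 0.10), was lower.

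Of 18 stretch and hypertrophy genes, 3 were higher and 1 was lower at an unadjusted p under 0.05 (median 0.03). The natriuretic peptides, actin and myosin genes differed by less than their errors. Nppa and Nppb, the natriuretic peptides, differed by -0.35 ± 0.58 and -0.02 ± 0.31, skeletal α-actin (Acta1) by -0.02 ± 0.31 and the slow and fast myosin heavy chains Myh7 and Myh6 by -0.10 ± 0.26 and -0.20 ± 0.25. Nppa measured 278 to 1199 CPM in young and 631, 504, 835, 832 and 616 CPM in older shams. The titin-binding Ankrd23 measured 42.8 to 67.9 CPM against 79.2, 53.1, 121, 103 and 79.6 CPM (0.30 ± 0.46), Tceal7 10.9 to 16.7 CPM against 24.9, 15.3, 32.8, 38.8 and 20.4 CPM (0.66 ± 0.45), and the proenkephalin gene Penk differed by 0.29 ± 0.22. The values and errors of all these genes come from the fit across all 30 libraries, which include the banded groups. Among the shams, 4 of the 5 older libraries lay above all young ones for both Ankrd23 and Tceal7. Across the alternative fits with all 11 shams or fewer, Ankrd23 ran from -0.22 to 0.65.

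Rcan1, the feedback inhibitor and reporter gene of calcineurin, measured 295 to 356 CPM in young and 427, 359, 586, 603 and 509 CPM in older shams, without overlap (0.55 ± 0.17, adjusted p = 0.24). Ankrd1 (CARP), a stretch-inducible titin-binding protein, differed by 0.48 ± 0.18 at 5600 to 8016 CPM against 8892, 7004, 9210, 11142 and 8288 CPM. Hopx, a homeodomain cofactor of cardiac growth, measured 82.5 to 109.8 CPM against 119, 111, 119, 161 and 125 CPM, without overlap (0.49 ± 0.21, adjusted p = 0.36). Of 26 immediate early genes, 5 were higher and 2 lower at an unadjusted p under 0.05. Cyr61 reached 184 and 119 CPM at 27 weeks against 26.3 to 70.0 CPM in young shams and 63.9, 72.0 and 60.2 CPM at 30 weeks (1.16 ± 0.42), and Egr1 was likewise highest at 27 weeks, at 72.6 and 46.1 CPM (1.16 ± 0.52). Without Sham-RF replicate 1 or 2, 0 and 1 immediate early genes were higher, without young replicate 3 or 5 there were 2, and without Sham-LF replicate 1 there were 8.

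Growth-related genes held few differences. Mest, an imprinted gene expressed from the paternal allele and high during fetal growth, measured 4.15 to 6.12 CPM in young and 2.98, 3.51, 3.52, 4.18 and 3.25 CPM in older shams (-0.78 ± 0.18, adjusted p = 0.12). The overlap came down to 1 older library just above 1 young one of series 1. Igf2 differed by 0.19 ± 0.13, the cell cycle inhibitor Cdkn1c by 0.38 ± 0.16, and the growth hormone target Socs2 by -0.41 ± 0.15. Of 40 genes of cell cycle and mitosis, 3 were lower and none was higher at an unadjusted p under 0.05 (median -0.14), led by the replication helicase subunit Mcm5 (-0.41 ± 0.12). The proliferation marker Mki67 differed by -0.14 ± 0.21.

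Marker genes of tissue at the margins of the LV differed in level between libraries. Whether the amount of such tissue differed was not tested. Mesothelial markers were highest in young replicate 7, with Upk1b at 6.22, Krt19 at 11.4 and Msln at 33.0 CPM, and highest among older shams in Sham-LF replicate 3, at 1.20, 3.31 and 7.29 CPM. In the mesothelium and epicardium list, 3 of 10 genes were lower at an unadjusted p under 0.05 (median -0.73). Its summed level was 43.0 to 54.6 CPM in older and 35.9 to 100.1 CPM in young shams. Atrial muscle and valve genes, such as the atrial light chain Myl7 at 10.7 to 166 CPM in young and 3.07 to 24.7 CPM in older shams, had 4 of 10 lower (median -0.38). Without young replicate 7 no gene of either list was lower, and the medians were -0.39 and -0.08. No mesothelial gene was lower either without Sham-RF replicate 1 or 2 or Sham-LF replicate 1, and 1 or 2 atrial genes were lower without Sham-RF replicate 2, Sham-LF replicate 1 or young replicate 4. The adipocyte list had a median of -0.37 over 10 genes, 4 of them above 0. At an unadjusted p under 0.05, 1 was higher, Cfd, and none was lower. Its summed level was 3478 to 3886 CPM in older and 3105 to 4513 CPM in young shams. Its defining marker Plin1 had counts in 4 young libraries and was at 0 in all older ones. The list's mean level was highest in young replicate 5, without which the median was -0.012. Endothelial markers had 2 of 19 genes higher, led by Vwf (0.35 ± 0.12), and smooth muscle and pericyte markers 1 of 13 lower, Abcc9 (-0.34 ± 0.15).

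The 2 groups of older shams were compared with each other in the same LV libraries. In the model of 30 libraries, no gene passed the adjusted threshold between 30 and 27 weeks among 11672 tested (0%). There 418 had an unadjusted p under 0.05, where 584 would be met by chance if no gene differed. That number moved with the fit. In the 5 older libraries alone it was 892 of 11241, with none called, and leaving out 1 Sham-LF animal gave 254 to 711. Several of the genes above had an unadjusted p under 0.05 in the model of 30 libraries. Col3a1 was lower by 0.62 ± 0.24 and Col1a1 by 0.68 ± 0.29 on the log2 scale at 30 weeks than at 27 weeks, and Rcan1 was higher by 0.53 ± 0.22. Cdh22 differed by 0.15 ± 0.20 and Pla2g2a by -0.28 ± 0.20 between both ages. With 2 and 3 animals, and with age joined to the kind of sham operation, age and operation cannot be told apart. Leaving out Sham-RF replicate 2, 1 gene, Itgad, was called.

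The same animals' septum and RV were tested for the same contrast. In the Spt, 3 of 11514 genes were called (0.0261%): Col3a1 fell by 1.01 ± 0.15 on the log2 scale (adjusted p = 0.0024), and Ass1 (0.87 ± 0.15, adjusted p = 0.0148) and Olr1085 (adjusted p = 0.0024) rose. In the RV, 140 of 11597 genes were called (1.21%), 60 higher and 80 lower. There Cdh22 rose by 0.91 ± 0.14, Pla2g2a by 1.24 ± 0.23, Ass1 by 0.92 ± 0.15 and Pfkfb1 by 1.76 ± 0.32, and Col3a1 fell by 0.89 ± 0.17, Col1a1 by 0.82 ± 0.17, Col4a1 by 0.62 ± 0.13, Stat2 by 0.43 ± 0.11, Ddit4 by 0.74 ± 0.19 and Atp6v1g2 by 1.34 ± 0.29, all with adjusted p between 0.0050 and 0.0485. The RV count rested on the series term and on single libraries: without the term 9 genes were called, and leaving out 1 animal gave 3 to 1835.

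The difference between chambers itself was tested with an interaction term. No gene passed the adjusted threshold for a difference between LV and Spt (0 of 11694, 0%) or between LV and RV (0 of 11750, 0%), with 489 and 538 genes at an unadjusted p under 0.05, where 585 and 588 would be met by chance if no gene differed. DESeq2 called none either, with 506 and 568 genes at an unadjusted p under 0.05. For Cdh22 the LV value exceeded that of the Spt by 0.20 ± 0.23 and differed from that of the RV by -0.07 ± 0.19. For Col3a1 these values were 0.20 ± 0.25 and 0.02 ± 0.24. The lowest p against the Spt was that of C1s, which stood 0.52 ± 0.13 above it, and against the RV that of Hp, the haptoglobin gene, at -1.97 ± 0.43. Among the genes described above, Dcn stood 0.48 ± 0.15 and Ccl6 0.72 ± 0.23 above the Spt, and Slc27a2 1.67 ± 0.63 above the RV, without passing the adjusted threshold.

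List medians were alike in the 3 chambers for interferon and collagen genes, whereas those of macrophage and ribosomal protein genes in the Spt were unlike those in LV. The median of interferon-stimulated genes was -0.20 in LV, -0.26 in Spt with 16 genes lower at an unadjusted p under 0.05, and -0.30 in RV with 16 lower, where the background of lower genes was 5.98% in Spt and 12.8% in RV, and that of higher genes 6.08% and 12.7%. The collagen medians were -0.16, -0.16 and -0.19. Macrophage markers, all above 0 in LV, had a median of -0.15 in Spt, with no gene higher and 1 lower, and 0.18 in RV. Ribosomal protein genes had a median of -0.01 in Spt with none at an unadjusted p under 0.05, and 0.41 in RV with 72 higher and 1 lower. LV and RV libraries share their layout of library series, and the Spt libraries have another. In the Spt all older shams belonged to series 3 together with young replicates 2, 3, 4 and 7. The part of library series in the difference between chambers was not tested.

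**Figure D4:**
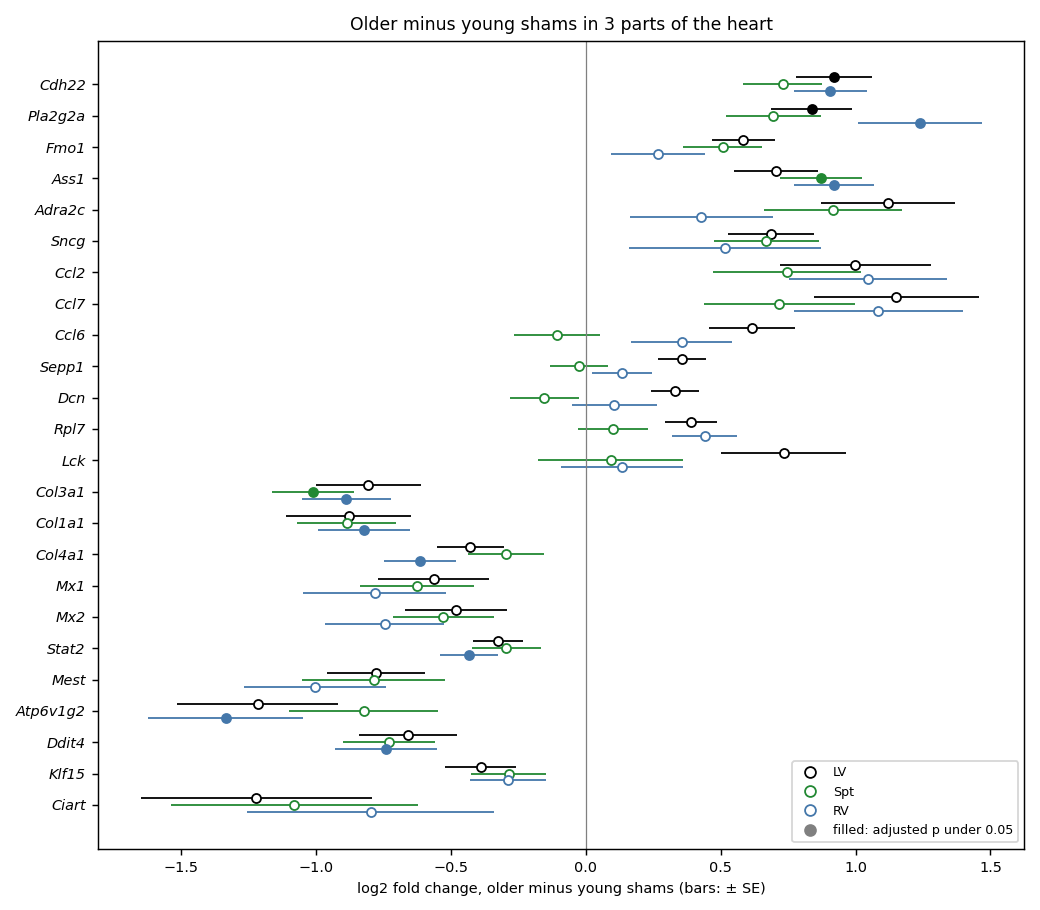
Log2 fold change ± SE, older minus young shams (horizontal axis), of 24 genes (vertical axis) in LV, Spt and RV, with filled points for an adjusted p under 0.05. Cdh22, Pla2g2a and the collagen genes lie on the same side in all 3 parts of the heart, while Sepp1, Dcn and Ccl6 are above 0 in LV and at or below 0 in Spt.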

How the data were processed

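Polyadenylated RNA of LV, Spt and RV was sequenced as 1 library per sample. The authors trimmed the reads with Trim Galore, aligned them with STAR to Rnor6.0 with UCSC annotation in the nf-core/rnaseq workflow and counted them with featureCounts, multiple overlaps disabled. They deposited raw counts per gene and FPKM values made from counts normalized with DESeq2. The strand setting of the counting was not given in the sources used here, so overlapping and antisense genes cannot be told apart. Raw counts of 17337 genes, 2218 of them without a count, were analysed here, and the FPKM values served only for relative gene length.

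Counts of 30 libraries per chamber, leaving out 3 animals with uncertain ventricle labels, were fitted with edgeR 4.0.16 (R 4.3.3) with TMM normalization, filterByExpr and the quasi-likelihood test, with 6 conditions and library series as terms. The older shams formed 1 condition. P-values were adjusted by Benjamini-Hochberg over all genes tested, at 0.05. CPM are TMM-adjusted. DESeq2 1.42.0 was an alternative, and the alternatives for the lists were chosen after seeing the data. The differences between chambers were tested as interactions in 1 fit over both chambers, without a term for the animal. An alternative in the sham libraries held that term. No pair of the 11 LV libraries agreed within sampling noise, and the animals are separate. The script was tested on simulated data.

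The members, lists and named genes were chosen with earlier results of these data known. Named were the 10 genes per direction with the largest change among those called, filled up with genes of lowest p, with at least 1 CPM and no overlap between groups; per list the called members with the largest change or else that of lowest p; a set of cardiac stress and matrix genes; and other list members at an unadjusted p under 0.05, added after their values were seen. Replicate numbers do not pair shams of different age: over 7 pairs, same-numbered samples correlated at -0.61 to 0.71 in their deviations. Promoter sequences are from RefSeq (GRCr8) and were matched by symbol.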

Additional observations from a re-analysis of the deposited data

Results flagged for a closer look

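Among the 118 genes examined in the young and the older group, that is 236 groups of 5 or 6 libraries, 18 groups held 1 library farther from the others than Dixon's 95% limit allows, where chance alone flags about 1 in 20. Among older shams, Sham-RF replicate 1 was highest for Slc27a2 (4.27 CPM, next 1.87) and Sncg (10.5 CPM, next 8.79). Sham-LF replicate 2 was highest for Cox6a2 (3363 CPM, next 2864), Hopx (161 CPM, next 125) and the mast cell tryptase Tpsb2 (29.3 CPM, next 20.8), and lowest for Mx1 (30.0 CPM, next 37.5). Sham-LF replicate 1 was lowest for Isg15 (18.7 CPM, next 23.5).

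The mesothelial genes gave outlying libraries in both groups. Sham-LF replicate 3 was highest among older shams for Upk1b (1.20 CPM, next 0.227), Krt19 (3.31 CPM, next 0.874) and Msln (7.29 CPM, next 2.26), and young replicate 7 among young shams for Upk1b (6.22 CPM, next 1.96), Krt19 (11.4 CPM, next 4.35) and Msln (33.0 CPM, next 11.2). Sham-LF replicate 3 was also highest for Hk2 (81.1 CPM, next 67.2).

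Among young shams, replicate 3 was highest for Per1 (124 CPM, next 91.4), replicate 1 for Oas1b (38.5 CPM, next 25.3) and the granzyme gene Gzmb (2.70 CPM, next 1.72), and replicate 2 for Olr1085 (0.0594 CPM, from its single count, next 0).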

How the results depend on the processing

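The number of genes called in the LV, 2, was 1 without a library series term (Olr1085, neither of the 2), 0 within series 2 alone, 0 in the 11 shams with the series term and 7 without it, 5 with all 33 libraries and 0 with the 27-week shams alone. The 7 and the 5 each shared 1 gene with the 2, Cdh22. DESeq2 called 50, sharing 0, having given an adjusted p to 579 of 11571 genes and to neither of the 2, and 34, sharing 2, when adjusted over all genes tested, an alternative chosen after seeing the data. Leaving out 1 animal gave 1 to 4. Cdh22 was called without any 1 animal (adjusted p 0.0031 to 0.033) and missed the threshold without the series term (0.086), within series 2 (0.41), in the 11 shams with the series term (0.12) and with the 27-week shams alone (0.14). In the RV, 140 became 9 without the series term, 0 within series 2, 887 with DESeq2 and 3 to 1835 without 1 animal, with 3 without Sham-H replicate 4, Sham-LF replicate 1 or Sham-LF replicate 2 and 1835 without Sham-LF replicate 3. In the Spt, 3 became 31 within series 3, 37 with DESeq2 and 2 to 105 without 1 animal, the latter without Sham-H replicate 5. The interactions stayed at 0 calls in every alternative run, and 30 against 27 weeks gave 0 to 1 without 1 animal. The causes were not tested.

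Of differences near 0, the sign turned within series 2 and in the 11 shams with the series term for Nppa (0.031 and 0.036), Nppb (0.062 and 0.068), Acta1 (0.023 and 0.028) and Myh7 (0.20 and 0.21), and with the 30-week shams alone for Nppb (0.0070), Acta1 (0.079) and Myh7 (0.057). It turned for Ankrd23 with the 27-week shams alone (-0.092) and for Mki67 without the series term, in all 30 libraries (0.0016) and in the shams alone (0.0016). Without 1 animal the sign also turned for Nppb (-0.22 to 0.12), Acta1 (-0.10 to 0.025) and Myh7 (-0.23 to 0.046, above 0 only without Sham-H replicate 7).

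With the replicate number as a block, 0 genes were called in LV, Spt and RV, and the sign turned for Ankrd23 (-0.22), Igf2 (-0.033), Krt19 (0.40) and Msln (0.12). The numbers do not pair these shams, which are separate animals in the labels. Of 7 same-numbered pairs, 3 correlated above 0.1, which in groups this small cannot decide on pairing.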
